A study of Mus musculus with 24 samples.

Results

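The messenger RNAs of 10 inflammatory cytokines were followed across wild-type and STAT5B-mutant mouse fat. The genes were Tnf, Il1a, Il1b, Il1rn, Il6, Il10, Ifng, Il18, Il33 and Osm, taken by symbol from the 24421 gene symbols counted in every library. All 10 were found. Total RNA of adipose tissue from C57BL/6 mice at 2 months of age had been sequenced after removal of ribosomal RNA. The title of the series names liver, whereas the labels of all 24 libraries name adipose tissue, and the tissue is given here as the labels have it. Each group was either wild type (WT) or a STAT5B mutant, Y665F or Y665H, in which 1 tyrosine of the protein is replaced by phenylalanine or by histidine. Males and females of each genotype were sequenced with 4 libraries each, which made 6 groups: WT male, Y665F male, Y665H male, WT female, Y665F female and Y665H female. All groups shared the strain, the tissue and the age, and none was labelled as treated. The number of mutated alleles per mouse, the fat depot and whether tissue was pooled are not given in the sources used here, and nothing in the labels states that each library came from a separate animal. The p-values therefore measure the spread between these libraries.

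Cytokines carry signals between immune, stromal and fat cells. TNF, interleukin 1 alpha (Il1a) and interleukin 1 beta (Il1b) act through receptors that lead to NF-kB, and the product of Il1rn is a receptor antagonist that occupies the interleukin 1 receptor without signalling. Interleukin 18 acts on T and NK cells and favours interferon gamma, interleukin 33 is an alarmin stored in the nuclei of stromal, endothelial and mesothelial cells, oncostatin M and interleukin 6 signal through gp130 to JAK kinases and STAT3, and interleukin 10 restrains macrophages. In adipose tissue much of the Tnf, Il1b and Osm messenger RNA comes from macrophages and other myeloid cells, and STAT5B is a transcription factor activated by growth hormone and by several cytokine receptors.

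Il1rn carried the largest fold changes among the cytokines, so the promoter windows of its annotated starts are shown first. RefSeq (GRCm38.p6) gave 11 windows, each from 250 bases before to 50 bases after a gene start, for 8 of the 10 cytokines. Il10 and Osm were not among the entries. Both strands were searched for TTCNNNGAA (a STAT motif), GGG followed by any 3 bases and TTCC (an NF-kB motif), TGANTCA (AP-1) and TTGCNNAA (C/EBP). The STAT and NF-kB patterns could share letters where they overlap. Capitals mark a match to the NF-kB or the STAT pattern. Below are the upstream Il1rn window (chr2:24336610-24336909, plus strand), the window of an Il1rn start farther into the gene (chr2:24345041-24345340, plus strand) and, because it held the only STAT match, the Ifng window (chr10:118440796-118441095, plus strand).
Il1rn upstream: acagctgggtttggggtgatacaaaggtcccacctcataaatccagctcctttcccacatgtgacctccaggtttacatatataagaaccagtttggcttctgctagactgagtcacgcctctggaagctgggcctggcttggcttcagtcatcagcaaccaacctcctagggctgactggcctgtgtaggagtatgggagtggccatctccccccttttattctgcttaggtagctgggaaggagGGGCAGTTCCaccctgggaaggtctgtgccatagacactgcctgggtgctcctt
Il1rn internal: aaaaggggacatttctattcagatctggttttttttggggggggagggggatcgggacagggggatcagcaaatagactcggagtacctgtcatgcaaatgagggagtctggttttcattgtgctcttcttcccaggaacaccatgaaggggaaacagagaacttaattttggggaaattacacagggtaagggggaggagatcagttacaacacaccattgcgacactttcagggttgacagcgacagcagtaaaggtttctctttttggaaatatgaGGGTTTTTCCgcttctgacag
Ifng: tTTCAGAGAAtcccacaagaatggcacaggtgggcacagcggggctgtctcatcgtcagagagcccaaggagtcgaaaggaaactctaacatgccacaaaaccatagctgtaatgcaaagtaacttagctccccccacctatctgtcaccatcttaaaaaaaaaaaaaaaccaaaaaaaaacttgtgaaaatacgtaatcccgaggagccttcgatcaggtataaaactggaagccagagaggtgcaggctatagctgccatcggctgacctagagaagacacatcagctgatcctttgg

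The NF-kB pattern began 4 bases before the upstream Il1rn start and 30 bases after the internal start. It occurred in 4 of the 11 windows, namely those of Il1rn and Il6, and in 5.56% of all 32851 promoter windows of this length. The internal Il1rn window overlaps another Il1rn window that holds the identical match. The STAT pattern occurred in 1 of the 11 windows, that of Ifng, where it began 249 bases before the start, and in 8.30% of all windows. AP-1 matches were found in 3 windows (Il1rn, Il1a and Il6), against 7.81% of all, and C/EBP matches in 2 (Il6 and Il33), against 10.8% of all. A match describes letters only, and no binding was measured.

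The median library held 34.6 M gene counts, where M stands for mega, and the range was 21.0 to 41.3 M. Each level is a count per M gene counts (CPM), and 3 counts, which correspond to 0.0726 to 0.143 CPM depending on the library, were taken as the counting floor. Intervals and floors cover counting error only. The adipocyte list, with genes such as Adipoq and Plin1, summed to 8266 to 29248 CPM over the 24 libraries, and all 12 of its genes had a mean of at least 1 CPM in every group. Stat5b messenger RNA had group means of 94.7 to 115.1 CPM, and its change was not called by edgeR in any comparison (adjusted p from 0.288 to 0.932). All 24 libraries matched their sex label. Some libraries stood apart by RNA of other tissues. The epididymis list summed to 13962 CPM in WT male 2, where the adipocyte list was lowest, to 3217 CPM in WT male 3, to 1212 CPM in WT male 4 and to 1603 CPM in Y665H male 3, against 1.30 CPM in WT male 1. The skeletal muscle list reached 1546 CPM in WT female 4, 871.8 CPM in WT female 1, 2672 CPM in Y665H female 3 and 911.3 CPM in Y665H female 4. The epithelium list reached 1741 CPM in Y665F female 3 and 1262 CPM in WT male 2. Y665F male 4 had the highest sums of the NF-kB target list (1394 CPM) and of the immediate early list (545.0 CPM). The cytokine calls are given with and without these libraries below, and the calls of other genes only with them. In Y665H against WT females, edgeR called 516 genes with all libraries, 22 without WT female 4 and 82 without Y665H female 3. Leaving out 1 library, which also lowers the number of samples, gave 20 to 1269 called genes there. The part of these other tissues in the results was not tested.

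The cytokines spanned a wide range of abundance. Per kilobase of annotated exon, the mean over the 24 libraries was 7.19 CPM for Il33, 2.36 for Il18, 0.493 for Tnf, 0.218 for Il1b, 0.186 for Osm, 0.174 for Il1rn, 0.162 for both Il1a and Il10, 0.0766 for Ifng and 0.0159 for Il6. The ranges over libraries of all neighbours in this order overlapped. The lowest Il33 value (2.87 CPM per kilobase) lay above the highest Tnf value (1.39), and the lowest Il18 value (0.961) lay above the highest Il1b value (0.607). The exon length of Il1rn, 5535 bases, sums several transcript forms, so its level per kilobase is a low estimate.

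Il1a, Il6, Il10 and Ifng were near the counting floor, defined as a median under 10 counts over the 24 libraries. Their medians were 9.00, 1.00, 6.00 and 2.00 counts. The other 6 had medians from 12.5 counts (Osm) and 13.0 counts (Il1b) through 23.0 (Tnf), 28.0 (Il1rn) and 74.5 (Il18) to 704.5 (Il33). With a median under 20 counts as the limit, Il1b and Osm would join the 4. The filter on low counts of edgeR passed Tnf, Il18 and Il33 in all 11 comparisons, Il1rn and Osm in 10, Il1b in 8, Il1a in 6, Il10 in 3, and Il6 and Ifng in 0 of 11.

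**Figure D1:**
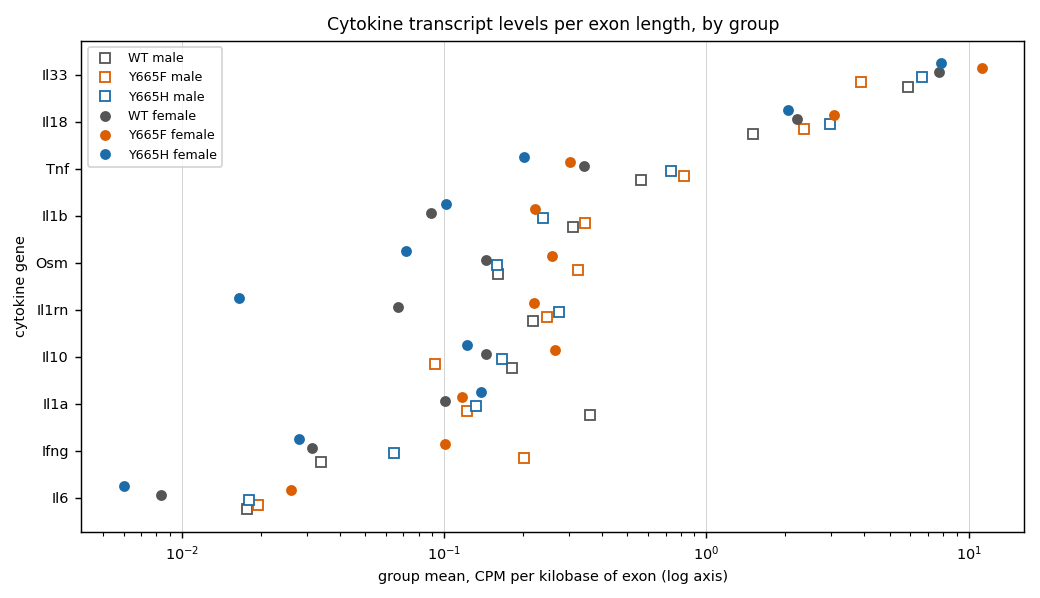
Group mean level of each cytokine gene in CPM per kilobase of exon (log axis), with 1 symbol per group (squares male, circles female). Il33 and Il18 lie above the others in every group, and Il6 lies lowest, with a mean over the 24 libraries of 0.0159.

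**Figure D2:**
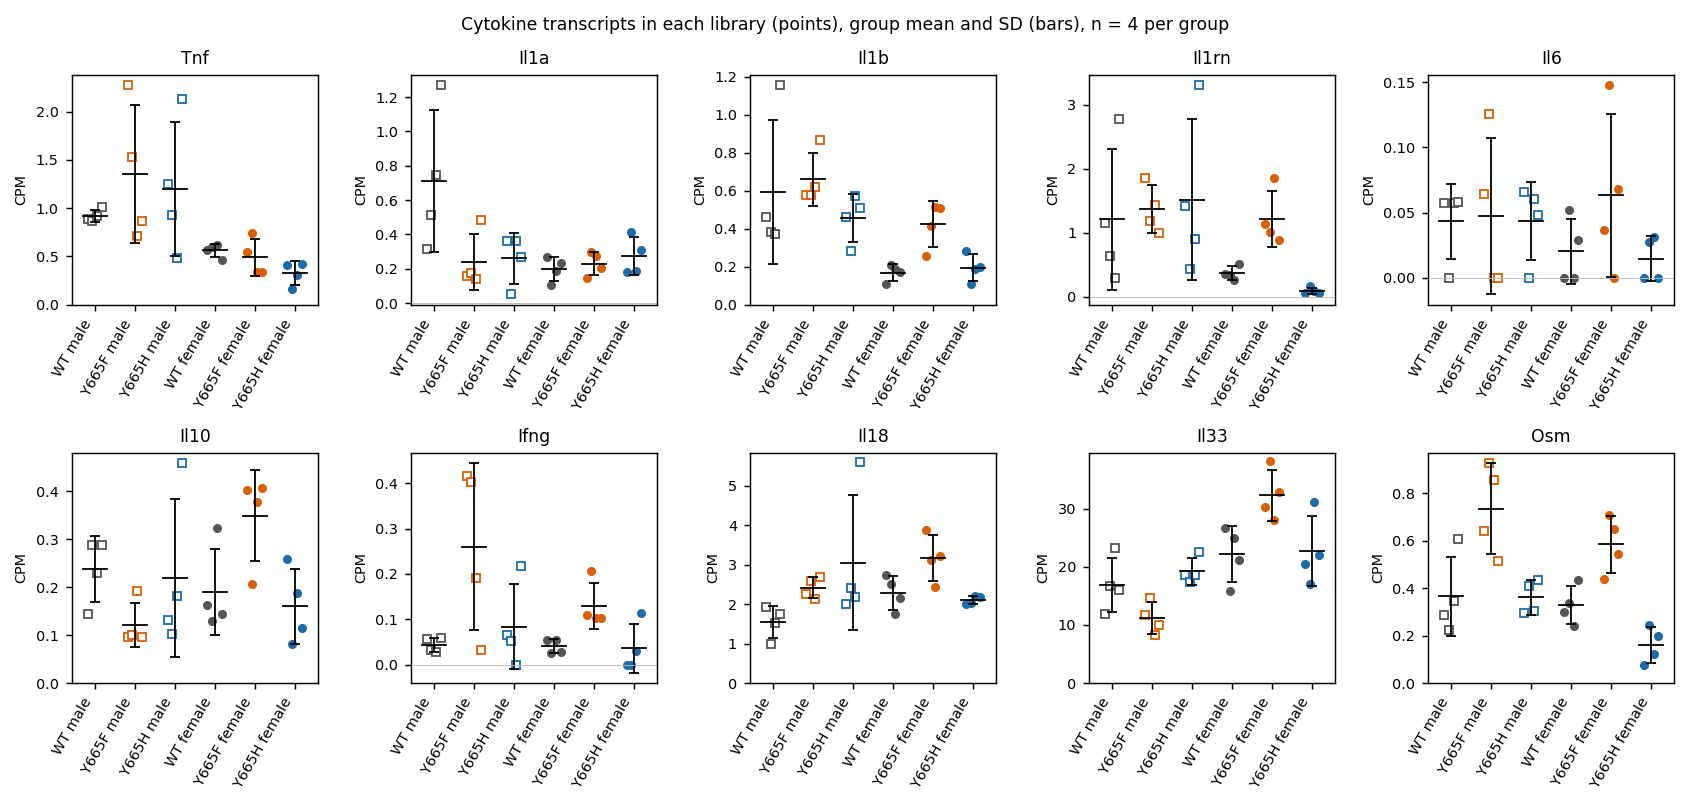
CPM of each cytokine in the 24 libraries (points, left to right replicate 1 to 4 within a group), with the group mean and SD (black bars, n = 4). Il1rn is lowest in Y665H females (mean 0.0916 CPM), Il33 is highest in Y665F females (mean 32.3 CPM), and Il6 stays at 0 to 0.148 CPM.

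Among females, Il1rn, the interleukin 1 receptor antagonist (chromosome 2, 24336853 to 24351494, plus strand), stood highest in Y665F and lowest in Y665H. The WT female libraries held 0.353, 0.337, 0.269 and 0.520 CPM. The Y665F female libraries held 1.14, 1.01, 1.85 and 0.883 CPM. The Y665H female libraries held 0.0516, 0.165, 0.0933 and 0.0568 CPM, which were 2, 6, 3 and 2 counts. None of the 3 female groups overlapped another, and 3 of the 4 Y665H female libraries were at or under the counting floor. Summed over its 4 libraries, Y665H female had 13 Il1rn counts, a level of 0.0912 CPM with an exact Poisson 95% interval from 0.0486 to 0.156.

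Y665F females had 1.22 ± 0.436 CPM of Il1rn (SD, n = 4) against 0.370 ± 0.107 in WT females. The log2 fold change was 1.57 (SE 0.30, edgeR adjusted p = 0.0354). Il1rn was the only cytokine called in this comparison, 1 of the 6 that passed the filter, while 2.31% of all tested genes were called higher and 1.02% lower (3.33% in either direction). Il1rn failed the filter in Y665H against WT females, so it passed here with the higher Y665F counts. The call was narrow. It remained without Y665F female 3, the library with the highest epithelium sum (adjusted p = 0.0345), and was lost without any other single library. The adjusted p was then 0.0958, 0.0988, 0.0593 and 0.0597 without WT female 1 to 4, and 0.0938, 0.0560 and 0.0723 without Y665F female 1, 2 and 4. It was also lost in a fit over all 24 libraries (0.136), while DESeq2 gave 0.00236. The fold change stayed between 1.33 and 1.78 throughout.

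Between the mutants, Il1rn was lower in Y665H than in Y665F females, with a log2 difference of -3.54 (SE 0.40) and an adjusted p of 0.00187 by edgeR. This call held when each library was left out in turn, with adjusted p from 0.00153 to 0.00910. Without Y665F female 3 or Y665H female 3, the libraries with the highest epithelium and muscle sums, it held as well. Y665H female 4 also had a high muscle sum (911.3 CPM). Il1rn and Osm were the 2 cytokines called lower, of 5 that passed the filter, against 8.59% of all tested genes called lower, 8.77% called higher and 17.4% called in either direction. Both failed the filter in Y665H against WT females, so they passed here with the higher Y665F counts.

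Against WT females, Il1rn in Y665H females failed the filter on low counts and so had no main test. With no filter, the log2 fold change was -1.96 (SE 0.43) and the edgeR adjusted p was 0.0498, with 1.08% of all genes called lower and 2.04% called in either direction at that setting. The filter passed Il1rn when some libraries were left out. The adjusted p was 0.0336 without WT female 3 and 0.0426 without Y665H female 2, but 0.107, 0.102 and 0.0843 without Y665H female 1, 3 and 4. A fit over all 24 libraries gave 0.125. Of the 3 cytokines that passed, 0 were called in Y665H against WT females by edgeR or by DESeq2, 1 had an unadjusted p under 0.05, and 3.34% of all tested genes were called (1.80% lower, 1.53% higher).

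In males, Il1rn did not differ between genotypes beyond the spread. WT males held 1.15, 0.639, 0.288 and 2.78 CPM, Y665F males 1.86, 1.18, 1.43 and 0.995, and Y665H males 1.42, 0.437, 0.907 and 3.31. The 3 male groups overlapped. WT male 4 and Y665H male 4 were the highest of their groups. The fold change was 0.23 (SE 0.63) for Y665F and 0.31 (SE 0.77) for Y665H against WT, and both changed sign when 1 library was left out: to -0.05 without WT male 3 and to -0.39 without Y665H male 4. The Y665H interaction with sex, the male minus the female effect, was 2.29 in log2 units (SE 0.95), with an edgeR adjusted p of 0.236, and the Y665F interaction was -1.33 (SE 0.72, adjusted p = 0.290). Neither was called.

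Among females, macrophage markers were highest in Y665F, as was Il1rn. The 12-gene macrophage list summed to 1420 to 2259 CPM in Y665F females, 1023 to 1417 in WT females and 753.6 to 1093 in Y665H females. All 12 genes had a mean of at least 1 CPM in each group. Adgre1, which encodes F4/80, had means of 87.4, 49.7 and 44.5 CPM in the same order. Ccr2, a receptor of recruited monocytes, had means of 63.4, 28.3 and 23.0 CPM. The part of macrophage RNA in the Il1rn result was not tested, and in bulk tissue fewer cells of a type and less RNA per cell cannot be told apart. Female group means of Il1rn were 1.22 CPM (Y665F), 0.370 (WT) and 0.0916 (Y665H), the last from 13 counts. Those of the macrophage list were 1787, 1178 and 977.4 CPM in the same order. Male means of the list were 1588 CPM (Y665F), 1049 (WT) and 1375 (Y665H), so it was highest in Y665F there too. Male means of Il1rn were 1.37, 1.21 and 1.52 CPM in that order, and edgeR called no difference between them.

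Oncostatin M (Osm, chromosome 11, 4236420 to 4241026, plus strand), a gp130 cytokine of myeloid cells, was lower in Y665H than in Y665F females. The Y665F female libraries held 0.440, 0.710, 0.652 and 0.543 CPM, and the Y665H female libraries 0.0775, 0.247, 0.124 and 0.199 CPM, or 3, 9, 4 and 7 counts. The groups did not overlap. The log2 fold change was -1.70 (SE 0.35, edgeR adjusted p = 0.0139), and the call held without each library in turn (adjusted p from 0.0183 to 0.0435). The mean of WT females lay between, with libraries at 0.298, 0.337, 0.242 and 0.434 CPM. Y665F females were above WT females without overlap, yet the difference of 0.71 (SE 0.27) was not called (edgeR adjusted p = 0.151). Y665H against WT females failed the filter.

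In males the mean of Osm was also highest in Y665F. Y665F males held 0.642, 0.929, 0.858 and 0.513 CPM, against 0.288, 0.224, 0.345 and 0.608 in WT males and 0.297, 0.411, 0.302 and 0.435 in Y665H males. WT male 4 overlapped the Y665F males, and the Y665H males lay below all Y665F males. The fold change was 1.06 (SE 0.39, edgeR adjusted p = 0.257) for Y665F against WT and -1.07 (SE 0.32, adjusted p = 0.146) for Y665H against Y665F. Neither was called, except that a fit over all 24 libraries called the first (adjusted p = 0.0430). The Y665F interaction with sex was 0.37 (SE 0.47, edgeR adjusted p = 0.663).

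The neutrophil and monocyte list was also highest in Y665F. It summed to 87.7 to 126.9 CPM in Y665F females, 56.6 to 69.5 in WT females and 39.1 to 58.9 in Y665H females. In males it was 69.2 to 139.6 CPM in Y665F, 44.3 to 92.5 in WT and 44.5 to 77.1 in Y665H. Of its 11 genes in the files, 4 or 5 per group reached a mean of 1 CPM. Ccr2, given above beside the macrophage list, belongs to this list, so the 2 are not separate observations. By group means it held 63.4 of 105.3 CPM in Y665F, 28.3 of 63.1 in WT and 23.0 of 48.8 in Y665H females. For males these were 53.9 of 102.7 CPM in Y665F, 28.2 of 65.3 in WT and 42.1 of 58.1 in Y665H. S100a8 and S100a9, the defining neutrophil genes, had group means of 0.0497 to 0.522 and 0.0330 to 0.202 CPM. The part of these cells in the Osm result was not tested.

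**Figure D3:**
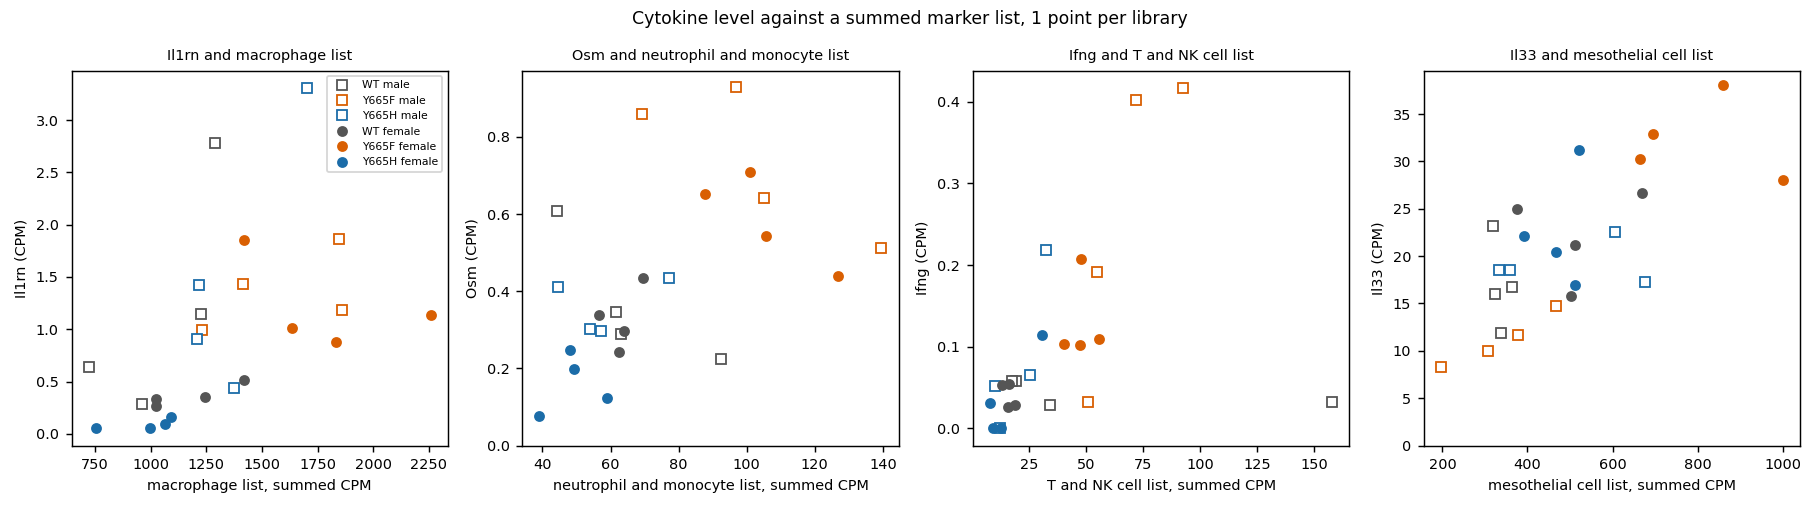
Each panel plots a cytokine (CPM) against the summed CPM of a marker list, with 1 point per library (squares male, circles female, colours by genotype). Among females, Y665F libraries lie to the right of WT and Y665H on the macrophage, neutrophil and monocyte, and T and NK cell lists. WT male 2 lies alone at 158.1 CPM on the T and NK cell list.

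Interleukin 1 beta (Il1b, chromosome 2, 129364570 to 129371139, minus strand) differed between the sexes in WT mice. WT males held 0.461, 0.384, 0.374 and 1.16 CPM and WT females 0.109, 0.207, 0.188 and 0.173 CPM. Every WT male library lay above every WT female library, and WT male 4 lay far above the other males. The log2 fold change was 1.62 (SE 0.45, edgeR adjusted p = 0.0487). Il1b was the 1 cytokine called of 7 tested, where 7.15% of all tested genes were called higher in males, 5.95% lower and 13.1% in either direction. Il1b and Il1a failed the filter in every comparison between female groups, so both were among the 7 through the higher WT male counts. The call was lost with no filter on low counts (adjusted p = 0.0808) and without every library except WT male 1 (adjusted p = 0.0396). It was 0.0535, 0.0711 and 0.0717 without WT male 2, 3 and 4, and 0.130, 0.103, 0.106 and 0.121 without WT female 1 to 4. Without WT male 4 the fold change was 1.12, and without WT male 2, the library with the most epididymis RNA, it was 1.77.

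In the mutant females Il1b stood at 0.256, 0.414, 0.515 and 0.509 CPM in Y665F and 0.284, 0.110, 0.187 and 0.199 CPM in Y665H. Y665F females lay above WT females without overlap. The gene failed the filter there, and with no filter the log2 fold change was 1.16 with an edgeR adjusted p of 0.112. Y665F males held 0.578, 0.578, 0.620 and 0.866 CPM and Y665H males 0.461, 0.283, 0.574 and 0.508, and the difference between them of -0.58 (SE 0.29) was not called (adjusted p = 0.337). The antisense gene Il1bos overlaps Il1b. Its group means were 0.0202 to 0.110 CPM, and since the strand setting of the counting is not given in the sources used here, reads of the pair cannot be told apart with certainty.

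Interleukin 1 alpha (Il1a, chromosome 2, 129299610 to 129309972, minus strand), the alarmin of the family, was most abundant in WT males at 0.317, 0.512, 0.748 and 1.27 CPM. WT females held 0.271, 0.104, 0.188 and 0.231 CPM, below every WT male. The difference of 1.66 (SE 0.47) fell short of the call with an edgeR adjusted p of 0.0516, and DESeq2 gave 0.0376. Without WT male 1 edgeR gave 0.0177. Y665F males held 0.160, 0.176, 0.143 and 0.481 CPM and Y665H males 0.363, 0.0514, 0.363 and 0.266 CPM. Both overlapped WT males, with log2 fold changes of -1.51 (SE 0.54, edgeR adjusted p = 0.253) and -1.45 (SE 0.60, adjusted p = 0.402). The 2 fold changes share the WT male libraries. A predicted gene, Gm14023, overlaps Il1a on the other strand.

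TNF (Tnf, chromosome 17, 35199381 to 35202007, minus strand) was called only between the sexes, in Y665H. WT males held 0.892, 0.863, 0.921 and 1.01 CPM against 0.570, 0.596, 0.618 and 0.463 in WT females, without overlap. That difference was 0.56 (SE 0.21) and was not called (edgeR adjusted p = 0.109), although scaling by library totals gave 0.0487. Mutant males were spread widely, at 2.28, 1.53, 0.715 and 0.866 CPM in Y665F and 1.25, 0.925, 0.484 and 2.13 in Y665H. Mutant females held 0.549, 0.739, 0.343 and 0.340 CPM (Y665F) and 0.413, 0.165, 0.311 and 0.426 CPM (Y665H).

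Within the mutants the sexes were compared after the levels had been seen. In Y665H, Tnf was higher in males (log2 fold change 1.69, SE 0.47, edgeR adjusted p = 0.0255), without overlap of the groups. This call was lost without Y665H male 1 (adjusted p = 0.0509), Y665H male 4 (0.0705), Y665H female 2 (0.0661) or Y665H female 3 (0.0676). Il1rn was also higher in Y665H males, by 3.83 (SE 0.68, edgeR adjusted p = 0.00341), and remained so without each library (adjusted p from 0.00116 to 0.0137). These 2 were the cytokines called of 7 tested, where 15.2% of all tested genes were called higher in Y665H males, 13.7% lower and 28.8% in either direction. Il1rn failed the filter in Y665H against WT females, so it passed here with the higher male counts. In Y665F, the Tnf difference of 1.47 (SE 0.45) was not called (edgeR adjusted p = 0.0609).

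Against WT, Tnf was not called in any mutant. In Y665H females all libraries lay below those of WT females, and the log2 difference was -0.75 (SE 0.32; edgeR, adjusted p = 0.191). In Y665F females the fold change was -0.31 (SE 0.31), and in males it was 0.61 (SE 0.39) for Y665F and 0.37 (SE 0.41) for Y665H, the last of which turned to -0.03 without Y665H male 4. The Tnf interactions with sex were 0.91 (SE 0.51) for Y665F and 1.12 (SE 0.53) for Y665H, and neither was called (edgeR adjusted p = 0.302 and 0.282).

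Interleukin 33 (Il33, chromosome 19, 29925114 to 29960718, plus strand) was the most abundant of the cytokines, with 174 to 1288 counts per library, so its values carry the least counting error. Y665F females held 30.3, 38.1, 28.0 and 32.9 CPM, and Y665F males 11.7, 14.7, 8.29 and 10.0 CPM. All Y665F female libraries lay well above all Y665F male libraries. In this comparison, chosen after the levels had been seen, Il33 was lower in males (log2 fold change -1.50, SE 0.20, edgeR adjusted p = 0.00635). It was the 1 cytokine called of 6 tested, where 7.52% of all tested genes were called lower in Y665F males, 7.60% higher and 15.1% in either direction, and it remained called without each library (adjusted p from 0.00689 to 0.0249).

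In WT mice Il33 stood at 11.9, 16.7, 23.2 and 16.0 CPM in males and 26.7, 15.8, 25.0 and 21.2 CPM in females. The groups overlapped and the difference of -0.53 (SE 0.23) was not called (edgeR adjusted p = 0.142). Against WT, Il33 in Y665F was 0.42 (SE 0.17) higher in females, without overlap, and in males the log2 fold change was -0.54 (SE 0.25). Neither was called (edgeR adjusted p = 0.171 and 0.313). The difference between those effects, -0.96 in log2 units (SE 0.32), had an edgeR adjusted p of 0.146, and of 0.0490 without WT male 1. Y665H males held 18.5, 17.3, 18.5 and 22.6 CPM, above every Y665F male. That difference of 0.72 (SE 0.18) was not called by edgeR (adjusted p = 0.0995) and was called by DESeq2 (0.00786). Y665H females, at 20.4, 17.0, 31.2 and 22.1 CPM, overlapped WT females.

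The mesothelial list, of which 8 genes were in the files, was 665.2 to 1001 CPM in Y665F females, 375.4 to 669.4 in WT females and 393.0 to 520.5 in Y665H females. In males it was 196.6 to 466.5 CPM in Y665F, 318.3 to 362.7 in WT and 333.1 to 675.7 in Y665H. In females, the fibroblast and progenitor list was 2485 to 2844 CPM in Y665F, 2780 to 2912 in WT and 2211 to 2887 in Y665H. Its male ranges were 1792 to 2315 CPM in Y665F, 1343 to 2235 in WT and 2054 to 2626 in Y665H. The 7-gene endothelial list was 892.9 to 1043 CPM in Y665F, 985.8 to 1254 in WT and 940.5 to 1051 in Y665H females. For males it was 1017 to 1255 CPM in Y665F, 603.6 to 1444 in WT and 1224 to 1413 in Y665H. The part of these cells in the Il33 differences was not tested.

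Interleukin 18 (Il18, chromosome 9, 50554827 to 50581840, plus strand) was higher in both mutant male groups than in WT males without overlap, although edgeR did not call either difference. WT males held 1.93, 0.991, 1.52 and 1.76 CPM, Y665F males 2.25, 2.59, 2.14 and 2.70, and Y665H males 2.01, 2.42, 2.18 and 5.61. Y665H male 4 stood far above the rest. The log2 fold changes were 0.68 (SE 0.26, edgeR adjusted p = 0.263) and 0.97 (SE 0.40, adjusted p = 0.402), and without Y665H male 4 the latter was 0.53. The 2 comparisons share the WT male libraries.

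Female libraries held 2.74, 2.52, 1.75 and 2.17 CPM of Il18 in WT, 3.88, 3.13, 2.44 and 3.23 in Y665F and 2.01, 2.03, 2.21 and 2.19 in Y665H. Y665H females lay below all Y665F females. The difference of -0.44 (SE 0.18) was not called (edgeR adjusted p = 0.116), and it was called without Y665F female 3 (adjusted p = 0.0370) and with scaling by library totals (0.0423). Bco2 and Tex12 overlap Il18 on the other strand. Bco2 had group means of 1.34 CPM in WT, 2.49 in Y665F and 2.24 in Y665H males, and of 1.46, 2.05 and 1.45 CPM in the females in the same order. As the strand setting of the counting is not given in the sources used here, the Il18 values are uncertain to that extent.

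Interferon gamma (Ifng, chromosome 10, 118441046 to 118445892, plus strand), the main product of activated T and NK cells in the set, was near the floor in every group. Counts were 2, 1, 1 and 2 in WT males, 13, 16, 4 and 1 in Y665F males and 2, 2, 0 and 9 in Y665H males. In females they were 2, 1, 2 and 1 in WT, 3, 7, 3 and 3 in Y665F and 0, 0, 1 and 4 in Y665H. Y665F females lay above WT females without overlap, and in Y665F males 2 libraries held most of the 34 counts. Summed by group, the levels were 0.276 CPM (exact Poisson 95% interval 0.191 to 0.386) in Y665F males and 0.0443 CPM (0.0163 to 0.0965) in WT males. Those in Y665F and WT females were 0.134 CPM (0.0764 to 0.217) and 0.0408 CPM (0.0150 to 0.0887). Ifng failed the filter everywhere, and with no filter the edgeR adjusted p was 0.296 in males and 0.149 in females. The annotated gene Gm49751 overlaps Ifng on the same strand.

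The 17-gene T and NK cell list was highest in Y665F among females, as was Ifng. It summed to 40.5 to 55.5 CPM in Y665F females, 12.9 to 18.8 in WT females and 7.90 to 30.8 in Y665H females. In males it was 50.9 to 92.7 CPM in Y665F and 10.1 to 32.3 in Y665H, while WT males had 17.3 to 34.0 apart from WT male 2 with 158.1. In WT male 2 the sum came mainly from Klrb1c (117.2 CPM) and Zap70 (26.8 CPM), and its Ifng count was 1. WT male 2 was also the library with the highest epididymis sum (13962 CPM). WT male 3, with the next highest (3217 CPM), had 9.44 CPM of Klrb1c and 3.88 CPM of Zap70. The part of epididymis RNA in these values was not tested. Y665F male 4, with a T and NK cell sum of 50.9 CPM, also had 1 Ifng count. The list averaged 20.0 CPM in Y665H males and 57.1 CPM in WT males, and Ifng averaged 0.0838 and 0.0440 CPM. The WT male mean was raised by WT male 2, and the list medians were 18.8 CPM (Y665H males) and 26.6 CPM (WT males). Of the 13 Ifng counts in Y665H males, 9 came from Y665H male 4, where the list summed to 32.3 CPM. The part of T and NK cells in the Ifng values was not tested.

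Interleukin 10 (Il10, chromosome 1, 131019845 to 131024974, plus strand), a brake on macrophage activation, had 3 to 19 counts per library. Y665F females held 0.403, 0.207, 0.378 and 0.407 CPM and Y665F males 0.0963, 0.100, 0.191 and 0.0963 CPM, and these groups did not overlap. The gene failed the filter in that comparison. With no filter, the log2 fold change of males against females was -1.50, with an edgeR adjusted p of 0.0626. WT males held 0.144, 0.288, 0.230 and 0.289 CPM, WT females 0.163, 0.130, 0.323 and 0.145, Y665H males 0.132, 0.103, 0.181 and 0.460, and Y665H females 0.258, 0.0823, 0.187 and 0.114. The Y665F interaction with sex was -1.66 (SE 0.55) and was not called (edgeR adjusted p = 0.146).

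Interleukin 6 (Il6, chromosome 5, 30013114 to 30019981, plus strand) had 32 counts in all 24 libraries together, no library above 5 counts, and 9 libraries at 0. By group the counts were 6, 7 and 6 in WT, Y665F and Y665H males and 3, 8 and 2 in the females. The highest group level, in Y665F females, was 0.0668 CPM with an exact Poisson 95% interval from 0.0289 to 0.132, and the lowest, in Y665H females, was 0.0140 CPM with an interval from 0.00170 to 0.0507. Differences in Il6 between groups were not detectable at this depth.

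**Figure D4:**
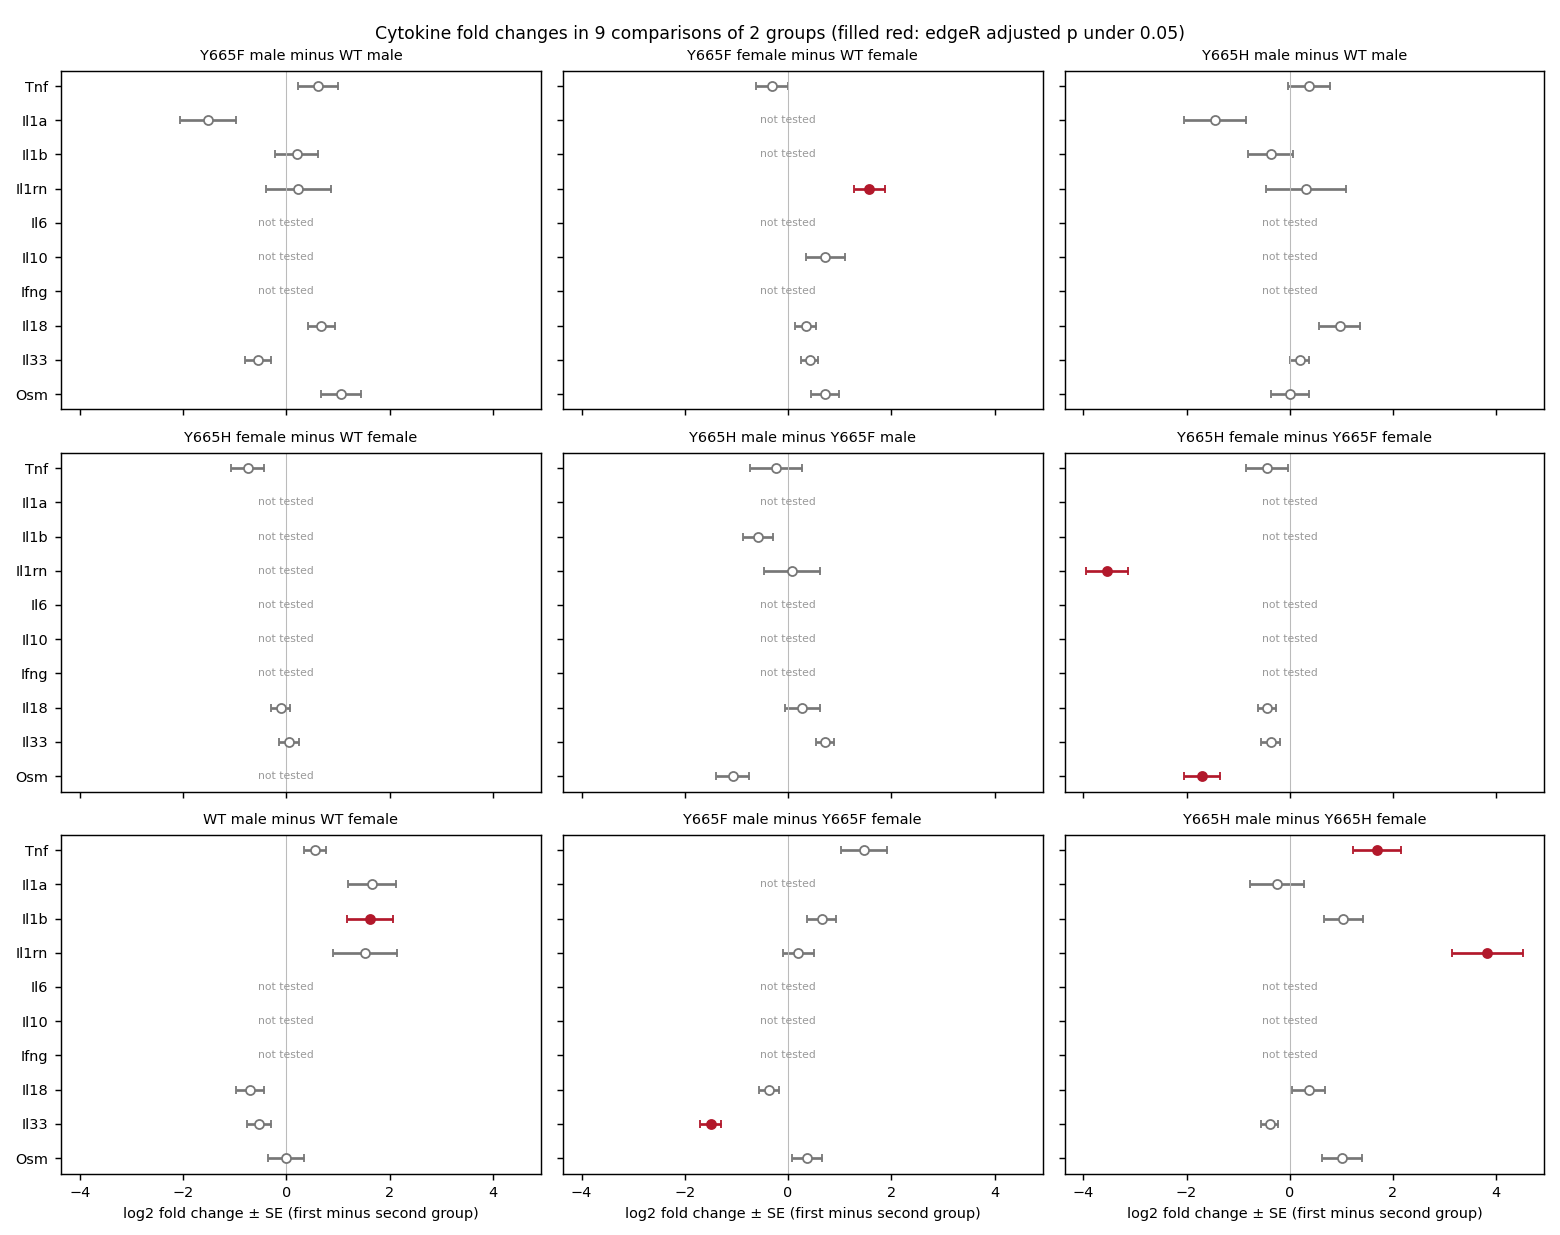
Log2 fold change with SE of each cytokine in 9 comparisons of 2 groups (8 libraries each), with filled red symbols where the edgeR adjusted p was under 0.05 and "not tested" where the gene failed the filter on low counts. Il1rn is the farthest from 0, at -3.54 for Y665H against Y665F females and 3.83 for Y665H males against females.

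In males, 0 cytokines were called in any genotype comparison by edgeR. For Y665F against WT, 7 passed the filter, 3 had an unadjusted p under 0.05 and DESeq2 called 0, and of all 16240 genes tested 0% were called, with 2772 at an unadjusted p under 0.05 and 1141 called by DESeq2. For Y665H against WT, 7 passed, 2 had an unadjusted p under 0.05 and DESeq2 called 0, and of 16406 genes 0% were called by edgeR, with 1874 at an unadjusted p under 0.05 and 119 called by DESeq2. For Y665H against Y665F, 6 passed, 2 had an unadjusted p under 0.05 and DESeq2 called 1 (Il33), against 1.03% of all genes called by edgeR (0.901% lower, 0.125% higher). The interactions with sex called 0 of 8 tested cytokines in either mutant by edgeR and by DESeq2, with 3 at an unadjusted p under 0.05 in each. Of all genes, 0% were called in the Y665F interaction and 0.0119% in the Y665H interaction.

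The median log2 fold change of the cytokines that passed the filter was 0.56 for Y665F against WT females (6 cytokines). For Y665H against Y665F females it was -0.44 (5 cytokines), and the medians of all genes tested were 0.02 and -0.03. These 2 comparisons share the Y665F female libraries. Il1rn and Osm passed the filter in both and failed it in Y665H against WT females. These 2 medians thus rest on members selected with the high Y665F values. In the other comparisons of 2 groups the cytokine median ranged from -0.11 (Y665H against WT females) to 1.01 (Y665H males against females). The members behind those medians differ as well. Il1b, Il1rn and Osm failed the filter in Y665H against WT females. They passed it in Y665H males against females, each with the higher mean in males, so the 1.01 also rests on members selected with high values. With scaling by library totals the all-gene medians of the first 2 comparisons moved to 0.15 and -0.18. For WT males against females they moved from 0.04 to 0.22, for the Y665F interaction from -0.06 to -0.25, and for Y665H males against females from 0.02 to 0.17. With that scaling the called genes split into 1025 higher and 139 lower for Y665F against WT females (361 and 160 with TMM). They split into 799 and 2406 for Y665H against Y665F females (1358 and 1331 with TMM), 2111 and 674 for WT males against females (1135 and 944), and 3712 and 1311 for Y665H males against females (2385 and 2155). The 7 cytokine calls above were made under both scalings.

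Receptors of interleukin 18 were among the genes that changed around the cytokines in females. Il18r1 and Il18rap, the chains of the interleukin 18 receptor, were higher in Y665F than in WT females by 1.64 (SE 0.20, edgeR adjusted p = 0.00978) and 1.43 (SE 0.19, 0.0150). Il18r1 measured 5.89 ± 1.03 against 1.71 ± 0.374 CPM, and Il18rap 3.24 ± 0.428 against 1.09 ± 0.221 CPM (SD, n = 4). The T and NK cell list had means of 47.8 CPM in Y665F, 15.8 in WT and 15.1 in Y665H females, and the part of these cells in the receptor values was not tested. Of 17 receptors and decoys, 2 were called higher and 0 lower there. In Y665H against Y665F females 7 of 17 were called lower and 0 higher. Of all genes tested, 2.31% were called higher and 1.02% lower in the first of these comparisons. In the second, 8.77% were called higher and 8.59% lower. For Y665H against WT females the shares were 1.53% higher and 1.80% lower, and for Y665H against Y665F males 0.125% and 0.901%. The counts of the lists below are to be read against these shares. The 7 receptors called lower included Il18rap (-2.19, SE 0.27), Il18r1 (-1.65, SE 0.28) and Il1rl1 (-1.50, SE 0.26), the receptor of interleukin 33. In males, Il1rl1 and Il10ra, the interleukin 10 receptor chain, were the 2 of 16 tested that were called lower in Y665H than in Y665F (-0.89, SE 0.13, and -0.79, SE 0.14). The interferon gamma receptor chain Ifngr2 was the 1 of 17 called in Y665H against WT females (-0.49, SE 0.10, edgeR adjusted p = 0.0428).

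Among 10 genes of cytokine maturation and release, Aim2, a DNA sensor of inflammasomes, was called higher in Y665F than in WT females (1.11, SE 0.22, edgeR adjusted p = 0.0365). In Y665H against Y665F females 4 of the 10 were called lower and 0 higher, against 8.59% and 8.77% of all tested genes. The 4 included Aim2 (-1.17, SE 0.20), the pore protein gene Gsdmd (-0.69, SE 0.09) and the inflammasome adaptor Pycard (-0.61, SE 0.17). Gsdmd was the 1 called in males in that comparison (-0.46, SE 0.07). None of the 10 was called by edgeR in Y665H against WT females. Of 20 signal transduction genes, the NF-kB subunit Rel was called higher (0.69, SE 0.12) and the kinase gene Irak2 lower (-0.55, SE 0.11) in Y665F than in WT females, where the Irak2 call was lost with scaling by library totals. Irak2 was also the 1 of 20 called in Y665H against WT females (-0.55, SE 0.12, edgeR adjusted p = 0.0476), at 47.3 ± 6.60 against 70.0 ± 9.28 CPM. That call held with library totals, and 1.80% of all tested genes were called lower there. Between the mutant females, 4 of the 20 were called lower in Y665H, against 8.59% of all tested genes. Among the 4 were Tyk2 (-0.45, SE 0.09), Rel (-0.59, SE 0.11) and Ikbkb (-0.33, SE 0.07). Between the mutant males, Tyk2 was the 1 of 20 called (-0.63, SE 0.07, edgeR adjusted p = 0.0126), with 0.901% of all tested genes called lower.

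Of the 15 genes of the NF-kB target list, 14 were tested in females and 0 were called in Y665F. In Y665H against WT females 1 was called, the feedback inhibitor Tnfaip3, at 9.34 ± 1.16 against 17.9 ± 2.12 CPM (-0.92, SE 0.12, edgeR adjusted p = 0.0141). Against Y665F females, Y665H had 3 called lower (Nfkbie, Icam1 and Tnfaip3) and 1 called higher (Sod2, 0.66, SE 0.11). There, 8.59% of all tested genes were called lower and 8.77% higher. None of the 8 genes of the interleukin 6 and oncostatin M target list was called by edgeR in any genotype comparison within a sex.

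Of 12 interferon gamma target genes, Gbp4 (0.76, SE 0.09), Iigp1 (0.56, SE 0.08) and Ciita (0.89, SE 0.16) were called higher and Nos2 (-0.82, SE 0.18) lower in Y665F than in WT females. Of all genes tested there, 2.31% were called higher and 1.02% lower. Ciita, the master regulator of MHC class II genes, was called lower in Y665H than in WT females (-0.49, SE 0.11), than in Y665F females (-1.38, SE 0.15) and than in Y665F males (-1.07, SE 0.11). Cxcl9, an interferon-induced chemokine, was also called lower in Y665H than in WT females (-0.39, SE 0.09). Between the mutant females, Gbp4 and Gbp2 were among 4 called lower in Y665H, and Cd274 was called higher, a call lost with scaling by library totals. The shares of all tested genes were 8.59% lower and 8.77% higher. In Y665F against WT males all 12 had fold changes above 0 with a median of 0.86, and 0 were called by edgeR. In Y665H against WT males all 12 were also above 0 (median 0.43), with 0 called. These 2 comparisons share the WT male libraries. In WT males against females 1 of the 12 was above 0 (median -0.47), with 4 called lower and 0 higher. There, 5.95% of all tested genes were called lower and 7.15% higher. Of the 19 cytokine relatives, 7 were tested in Y665F against WT females and 6 in Y665H against Y665F females. Among those tested, lymphotoxin beta (Ltb) was called higher in Y665F than in WT females (1.79, SE 0.29, edgeR adjusted p = 0.0237), at 4.09 ± 0.599 against 1.09 ± 0.396 CPM. It was called lower in Y665H than in Y665F females (-1.34, SE 0.22). Among females, B cell markers were also highest in Y665F (20.2 to 30.9 CPM for the list of 8, against 7.96 to 13.1 in WT and 7.74 to 11.9 in Y665H), and their part in the Ltb and Ciita values was not tested.

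Of the 8 immediate early genes, 1 was called in the genotype comparisons within a sex: Dusp1 was lower in Y665H than in WT females (-1.08, SE 0.19, edgeR adjusted p = 0.0248). With scaling by library totals, which called 2406 of all genes lower and 799 higher in Y665H against Y665F females (all-gene median -0.18), 9 receptors, 5 maturation genes, 9 signal transduction genes and 6 NF-kB targets were called lower there. In the signal transduction and NF-kB lists 1 gene each was called higher. In Y665F against WT females that scaling called 1025 of all genes higher and 139 lower (all-gene median 0.15), with 4 receptors and 5 interferon gamma targets higher and 1 interferon gamma target lower.

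**Figure D5:**
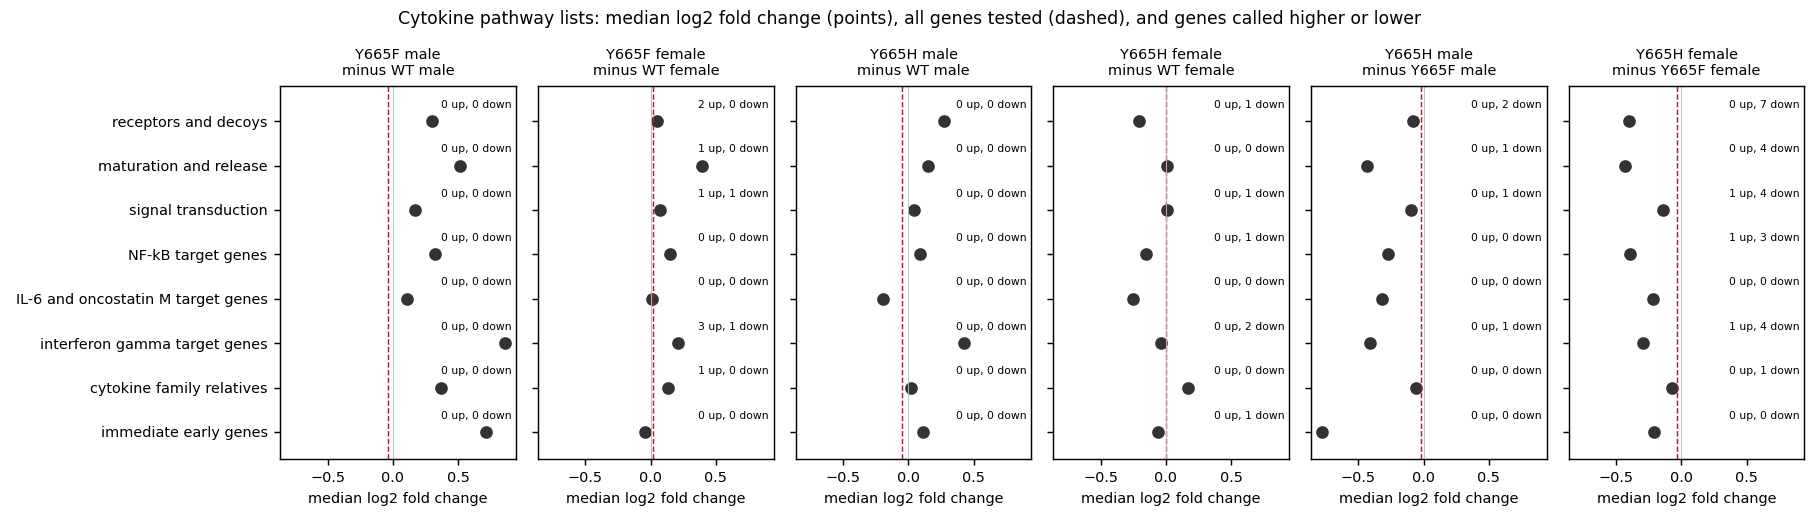
Median log2 fold change of the tested genes of 8 lists (points) in the 6 genotype comparisons within a sex, beside the median of all genes tested (dashed line) and the number of genes called up or down by edgeR. In Y665H against Y665F females 7 of 17 receptors were called lower, in a comparison that called 17.4% of all genes tested.

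Across the 24 libraries, the 6 cytokines with a median of at least 10 counts gave 15 pairs of log2(CPM + 0.5) values. The strongest relation was between Il1b and Il1rn (Pearson r = 0.77, permutation p = 3.00e-05, adjusted 0.000450; Spearman rho = 0.76, permutation p = 4.00e-05, adjusted 0.000600). Il1rn and Osm followed with r = 0.69 (permutation p = 0.000200, adjusted 0.00150) and rho = 0.73 (permutation p = 9.00e-05, adjusted 0.000675). Without the 2 libraries farthest from the median the r of these pairs was 0.77 and 0.71. In all, 5 pairs passed an adjusted p of 0.05 by r, all positive, and 8 by rho. After the group mean was subtracted from each value, 0 pairs passed, with r = 0.55 for Il1b and Il1rn (permutation p = 0.00747, adjusted 0.112) and r = 0.43 for Il1rn and Osm (permutation p = 0.0381, adjusted 0.129). Both remained positive without passing the adjusted threshold. Il18 and Il33 belonged to none of the 5 pairs.

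Over the same 24 libraries and 14838 genes that averaged 1 CPM or more, the genes most like each cytokine were found by Spearman correlation, given as a description. Il1rn was closest to Slc37a2 (rho = 0.93), Efhd2 (0.91) and Lilrb4a (0.91). Osm was closest to Gna15 (0.92), Pik3cd (0.91) and Dok3 (0.91). Il1b was closest to Clec4d, Taf3 and Itgax (0.87 each), and Tnf to Zc3h12a (0.86), Sp2 (0.84) and Spink2 (0.84). For Tnf and Spink2 the Pearson r was only 0.33, and 1 of the 3 genes nearest Tnf was also among its top 3 by Pearson r. Il33 was closest to Twsg1 (0.85), Gabra3 (0.85) and Lima1 (0.83), and Il18 to Vwa5a (0.82), Dctn5 (0.80) and 9930111J21Rik1 (0.79). These libraries share groups and marker levels. After subtraction of group means, the rho between Il1rn and Slc37a2 was 0.82, and that between Il1b and Itgax was 0.13.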

How the data were processed

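The authors deposited raw read counts per gene symbol, 1 file per library, from stranded total RNA libraries per the labels' protocols. Per the submitters' processing notes the tools were FastQC 0.11.9, Trimmomatic 0.36, STAR, SAMtools 1.9, Picard 2.9.2 and HTSeq 0.9.1, with the mm10 build. Neither the annotation release nor whether counting used strand is given in the sources used here. The 5 entries that name no gene, 24.8 to 39.7% of all counts of a library, were left out.

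Groups were taken from the titles. Each comparison of 2 groups was fitted on its 8 libraries, and each interaction with sex on 16, with edgeR 4.0.16 in R 4.3.3 (quasi-likelihood test, limma 3.58.1), TMM scaling, filterByExpr and Benjamini-Hochberg adjustment over all genes tested. Genes with an adjusted p under 0.05 are termed called. DESeq2 1.42.0, library totals, no filter, a fit over 24 libraries, a replicate block and leaving out each library were the alternatives. The scripts were tested on simulated data. Within groups the 36 pairs of libraries differed by more than sampling noise (chi-square per degree of freedom at least 16.6). Correlation p-values came from 100000 two-sided permutations (Python 3.11.15, scipy 1.17.1). Gene positions and exon lengths are from GENCODE on GRCm38.

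The cytokines and lists were chosen with earlier results of these data known. All 10 cytokines are named. From each pathway list at most 3 called genes per direction and comparison, by smallest p, could be named, and the 3 genes most like each cytokine with a median of at least 10 counts. The 2 comparisons of the sexes within a mutant were added after the levels had been seen. The result of 1 gene of the signal transduction list is not reported here.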

Additional observations from a re-analysis of the deposited data

Results flagged for a closer look

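In groups of 4 libraries, a value was singled out when its gap to the nearest other library took a larger share of the range of its group than Dixon's critical value at the 95% level. This was met by 8 of the 60 combinations of cytokine and group. Chance gives about 1 in 20 for continuous values, a rate that need not hold for low counts. Il18 stood at 5.61 CPM in Y665H male 4, against 2.01 to 2.42 in the other libraries of the group. Il1b stood at 1.16 CPM in WT male 4 (others 0.374 to 0.461) and at 0.866 CPM in Y665F male 4 (others 0.578 to 0.620). Il1a stood at 0.481 CPM in Y665F male 4 (others 0.143 to 0.176), the library with the highest NF-kB target sum. Ifng stood at 0.207 CPM in Y665F female 2 (others 0.102 to 0.110). Il10 stood at 0.191 CPM in Y665F male 3 (others 0.0963 to 0.100). That was 4 counts in the library of lowest depth, 21.0 M, and Y665F male 2 also had 4 counts. As the lowest of its group, Il10 stood at 0.207 CPM in Y665F female 2 (others 0.378 to 0.407). Il6 stood at 0 CPM in WT male 2 (others 0.0575 to 0.0579), a difference of 2 counts.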

How the results depend on the processing

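Of 1032 recomputed cytokine fold changes, 956 kept their direction and side of the threshold, 22 lost the call, 21 gained one and 33 changed sign; where no cause is named it was not tested. DESeq2 called 1141 genes for Y665F against WT males, 2047 in females, 119 for Y665H against WT males, 1760 in females, 1097 for Y665H against Y665F males, 4549 for WT males against females, 4254 for Y665F males against females, and 1193 and 717 in the Y665F and Y665H interactions. It called 1 cytokine for Y665H against Y665F males, 2 for WT males against females and 2 for Y665F males against females. A fit over 24 libraries called 2261 genes (1 cytokine) for Y665F against WT males, 0 cytokines in females, 203 genes for Y665H against WT males, 250 in females, 400 for Y665H against Y665F males, 5987 genes (5 cytokines) for WT males against females, 1 and 201 genes in the interactions, and 3 cytokines for Y665F males against females. Library totals called 1164 genes for Y665F against WT females, 72 in the Y665H interaction and 3 cytokines for WT males against females. No filter called 1 cytokine for Y665H against WT females and 0 for WT males against females. Replicate numbers did not pair the samples (correlations of same-numbered deviations from -0.39 to 0.74, with no comparison over 0.1 in every pair; in WT males against females 3 samples matched their own number best). With the replicate block, 0 cytokines were called for Y665F against WT females (Il1rn, edgeR adjusted p = 0.0715) and for WT males against females (Il1b, edgeR adjusted p = 0.0976), and 2 for Y665F males against females. The block called 32 genes for Y665H against WT females, 0 for Y665H against Y665F males, 1583 in females, 825 for WT males against females, 1173 for Y665F males against females and 1 in the Y665H interaction. Without 1 library, which also lowers the number of samples, called genes ranged for Y665F against WT from 0 to 570 in males and 67 to 747 in females (0 to 1 cytokines), for Y665H against WT from 0 to 1 in males and 20 to 1269 in females (0 to 1 cytokines), and for Y665H against Y665F from 10 to 220 in males and 1554 to 2839 in females (2 to 3 cytokines). They ranged from 251 to 5076 (0 to 2 cytokines) for WT males against females, 787 to 2180 (1 to 2) in Y665F, 3599 to 4749 (1 to 3) in Y665H, 0 to 1686 (0 to 1) in the Y665F and 0 to 1844 in the Y665H interaction. Signs changed for Osm in Y665H against WT males with library totals (-0.02), for Osm in WT males against females with DESeq2 (-0.01), no filter (-0.04), 24 libraries (-0.02) and the block (-0.04), and with the block for Il1rn in Y665H against Y665F males (-0.24) and Il10 in the Y665H interaction (0.00). Leaving out 1 library moved fold changes across 0 for Il1rn in Y665F against WT males (-0.05 to 1.01). In Y665H against WT males it did so for Tnf (-0.03 to 0.64), Il1b (-0.50 to 0.15), Il1rn (-0.39 to 1.08) and Osm (-0.14 to 0.34), and in females for Il33 (-0.13 to 0.16). In Y665H against Y665F males it did so for Tnf (-0.64 to 0.13), Il1rn (-0.62 to 0.37) and Il18 (-0.16 to 0.44). It also did so for Osm in WT males against females (-0.31 to 0.17), Il10 in the Y665H interaction (-0.49 to 0.48), and Il1a (-0.46 to 0.07) and Il18 (-0.06 to 0.53) in Y665H males against females. Depth limits Il6, Ifng, Il10 and Il1a most.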
